A study of Pimephales promelas with 32 samples.

Results

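RNA of the fathead minnow (Pimephales promelas) that was annotated to Ty3 retrotransposon polyproteins was examined in 32 single larvae from 3 groups. The members were the gene models that the deposited table pairs with the UniProt entry Q7LHG5 (Ty3-I Gag-Pol) or Q99315 (Ty3-G Gag-Pol) and whose mean count over all larvae was at least 5. This rule found 120 members among 26150 models, 73 with the Ty3-I entry and 47 with the Ty3-G entry. Another 105 models carried either entry but had a lower mean count, and 2 of those had no count in any larva. Just inside the limit were FMg025655, with a mean count of 5.12, and FMg003431, with a mean count of 5.25. Just outside it were FMg020916, with a mean count of 4.94, and FMg025685, with a mean count of 4.91.

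The larvae were exposed for 48 h to bifenthrin at 3.2 µg/L (10 larvae), to copper sulfate at 40 µg/L (11 larvae), or to neither chemical as controls (11 larvae). Bifenthrin is a pyrethroid insecticide that acts on voltage-gated sodium channels, and copper sulfate releases copper ions that are toxic to fish. All groups, controls included, carried 0.002% DMSO as the vehicle and were kept at 25 °C, with 10 larvae placed in each of 5 beakers per treatment. Per the labels at least 2 sequenced larvae came from each beaker, but the labels do not tie larvae to beakers. Larvae are therefore treated as separate samples, and p-values would be too small if larvae of 1 beaker resembled each other. The age labels read 48 h post hatch and 4 days post fertilization, and the treatment protocol reads 96 h post hatch, a difference that was not resolved. RNA came from whole larvae, so fewer cells with a transcript and less of it per cell cannot be told apart. The table holds no gene symbols, so the tissue label could not be set against marker genes.

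Ty3 elements, also called Ty3/gypsy or Metaviridae, are retrotransposons flanked by long terminal repeats and take their name from elements of the yeast Saccharomyces cerevisiae. Their RNA is both the template for reverse transcription and the message for Gag, which forms the particle, and Pol, which holds protease, reverse transcriptase, ribonuclease H and integrase. Fish genomes carry many such families, their copies differ in place and number between individuals, and in vertebrates DNA methylation, repressive chromatin and, in the germline, piRNAs restrain them. An annotation of this kind says which protein the table pairs with a model, not that the model is a complete or mobile element. Whether the Ty3-I and Ty3-G entries mark separate groups of minnow elements was not tested. Values given by entry therefore describe the annotation, not kinds of element. Members may be close copies of each other, and how reads matching several models were counted is not given in the sources used here, so the values of single members are uncertain to that degree. No sequence of these models was used here.

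Total counts per larva ran between 10655113 and 17993699, with means of 13604284 ± 1560446 with bifenthrin, 14132989 ± 1613666 with copper sulfate and 14085246 ± 2600502 in control larvae (SD, n = 10, 11 and 11). Libraries were sequenced in lane 6 (5 bifenthrin, 5 copper sulfate and 6 control larvae) and lane 7 (5 bifenthrin, 6 copper sulfate and 5 control larvae). The scaling factor of copper sulfate replicate 2 was 0.877, the lowest of all larvae. Levels below are counts per 1000000 counts after scaling of the library sizes (CPM), and levels of different members are not compared because model lengths were not available.

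Ty3 members were detected in every larva and gave a small, similar share of the counts in all groups. That share covers the 120 members alone, and how reads matching several models were counted is not given. It is therefore not a measure of all Ty3 RNA. The members held 0.0361% ± 0.0030 of all counts with bifenthrin, 0.0370% ± 0.0043 with copper sulfate and 0.0363% ± 0.0070 in control larvae (SD, n = 10, 11 and 11). Their summed level was 367 ± 34.4 CPM in bifenthrin larvae (lowest 301, median 360, highest 413). In copper sulfate larvae it was 376 ± 33.5 CPM (lowest 326, median 376, highest 437), and in control larvae 350 ± 58.7 CPM (lowest 245, median 360, highest 444). The ranges overlapped across all 3 groups, and the control group held both the lowest larva (replicate 14) and the highest (replicate 7). Between 109 and 120 members had at least 1 count in a bifenthrin larva, 105 to 117 in a copper sulfate larva and 108 to 117 in a control larva.

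Counts were uneven among members. FMg018943 held 25.3% of all member counts and FMg024750 held 13.3%, and the first 10 members together held 61.6%. Mean counts ran between 5.12 and 1281 with a median of 11.4, and 58 of the 120 members had a count in all 32 larvae. The first 2 members together reached 129 ± 19.1 CPM in bifenthrin larvae, 163 ± 34.0 CPM in copper sulfate larvae and 129 ± 25.3 CPM in control larvae. The other 118 members summed to 238 ± 29.4 CPM in bifenthrin larvae, 213 ± 36.7 CPM in copper sulfate larvae and 222 ± 40.2 CPM in control larvae. Within each of these sums the group means lay closer together than the ranges of single larvae.

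**Figure D1:**
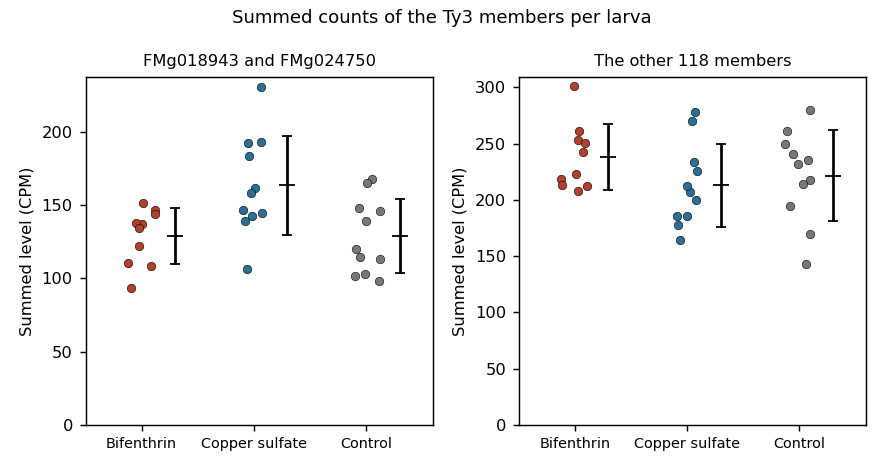
Summed level of the Ty3 members in CPM (vertical axes, starting at 0) for bifenthrin, copper sulfate and control larvae, for FMg018943 and FMg024750 together (left) and for the other 118 members (right). Each point is a larva and the bar beside it is the mean ± SD. The 3 groups overlap in both panels, and the lowest sum of the other members, 143 CPM, is that of a control larva.

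The members' counts varied far more between single larvae than those of most other models. Of the 120 members, 88 passed the filter on low counts and entered the fit with 21174 models in all (57 of the Ty3-I entry and 31 of the Ty3-G entry). The 32 members left out had mean counts between 5.12 and 11.4. The biological coefficient of variation, which is the larva-to-larva spread within groups as a fraction of the level with counting error removed, had a median of 0.629 over the 88 members and 0.183 over all models tested. Over all models this measure was larger at low levels, and the trend had a median of 0.392 at the members' levels and 0.207 over all models tested. Above their own trend value lay 78 of the 88 members (88.6%), against 25.3% of all models. Among the 5% of all models with the largest dispersion over the trend were 42 members (47.7%). No test of the list was made, because the members were proposed with earlier results of these data known.

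Other measures of spread pointed the same way but carry a limit. The SD, the larvae at 0, the share of the highest larvae and the group share of variance include counting error. That error is larger at the members' low counts, so these measures are not separate evidence of spread between larvae. The SD of log2 CPM around the group means had a median of 0.99 over members and 0.29 over all models. A count of 0 in at least 1 larva occurred for 37 of the 88 members (42.0%), against 446 of all models (2.11%), but members also had low counts, with a median mean count of 17.3 against 179.5. Among models with a mean count of at least 50, 1 of 18 members and 25 of 16622 models had a larva at 0. The 3 highest larvae held a median of 21.4% of a tested member's summed CPM, against 13.4% over all models. Differences between the 3 groups made up a median of 5.26% of a member's variance in log2 CPM, against 17.1% over all models. The median coefficient was 0.615 for Ty3-I and 0.648 for Ty3-G members, with 26 of 57 and 16 of 31 of them in the most dispersed 5%.

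**Figure D2:**
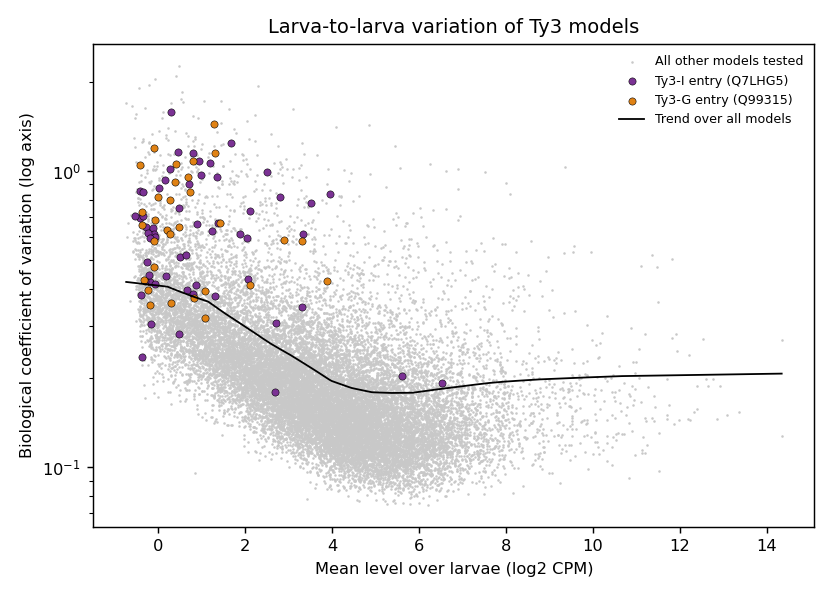
Biological coefficient of variation (vertical, log axis) against mean level in log2 CPM (horizontal) for all 21174 models tested in grey, with Ty3-I and Ty3-G members in colour and the trend over all models as a line. Of 88 members, 78 lie above the trend.

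Some members were high in a few larvae and nearly absent in the rest, and several shared those larvae. As a working definition, a member was called high-low where the widest gap between neighbouring larvae was at least 1.5 log2 CPM, with at least 3 larvae on each side. That gap was set after the values were seen. It held for 5 members (5.68%) and 78 of all models (0.368%), while a gap of 1 gave 10 members and 174 models and a gap of 2 gave 1 member and 44 models.

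FMg013649 (Ty3-I entry) was the clearest case. Its level was 12.3, 9.49 and 9.73 CPM in bifenthrin replicates 1, 10 and 14, 14.1 CPM in copper sulfate replicate 13, and 11.1, 11.97 and 9.01 CPM in control replicates 5, 7 and 11. In the other 25 larvae it lay between 0.0641 and 1.63 CPM. Counts were 106 to 209 in the 7 high larvae and 1 to 27 in the 25 low larvae, while total counts ran between 11267665 and 17993699 in the high larvae and between 10655113 and 17703339 in the low ones. High larvae came from every group and from both lanes, 3 of 10 bifenthrin, 1 of 11 copper sulfate and 3 of 11 control larvae.

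Another 2 members with the Ty3-I entry were high in exactly those 7 larvae. FMg016173 had 45 to 103 counts in them and 0 to 12 in the others, or 3.15 to 6.93 CPM against 0 to 0.843 CPM. FMg024410 had 70 to 112 counts in them and 2 to 24 in the others, or 4.81 to 7.79 CPM against 0.156 to 1.54 CPM. FMg007382 (Ty3-G entry) was high in the same 7 larvae and in control replicate 14, with 62 to 172 counts against 0 to 12. In control replicate 14 it had 3.98 CPM, the lowest of its 8 high larvae, while FMg013649 had 0.0641 CPM there. FMg014871 (Ty3-I entry), named after its values were seen, did not meet the definition, with a widest gap of 0.518 log2 CPM. It also had its highest counts in the 7 high larvae of FMg013649, 64 to 101 against 5 to 42 in the others.

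The pattern was not limited to Ty3 entries. Of all 78 high-low models, 4 split the larvae exactly as FMg013649 did. Of these 4, 3 were the members FMg013649, FMg016173 and FMg024410. The other was FMg014002, which the table places in the aspartic endopeptidase class and which had 171 to 221 counts in the high larvae against 5 to 31. FMg006912, which has no annotation entry, split the larvae as FMg007382 did, with 74 to 170 counts against 0 to 15. Shared reads among these models were not tested.

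FMg025269 (Ty3-I entry), the last of the 5 high-low members, followed another division. It was high in 11 larvae (bifenthrin replicates 1, 10, 13 and 14, copper sulfate replicates 5 and 11, and control replicates 2, 3, 7, 11 and 13), with 16 to 80 counts against 0 to 3 in the other 21. Of its 11 high larvae, 5 were among the 7 of FMg013649. Fold changes between groups for these members had wide errors and passed no threshold. FMg013649 differed by 0.01 ± 0.89 log2 in bifenthrin against control larvae (SE, edgeR adjusted p = 0.996) and by -0.92 ± 0.82 in copper sulfate against control larvae (adjusted p = 0.614).

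**Figure D3:**
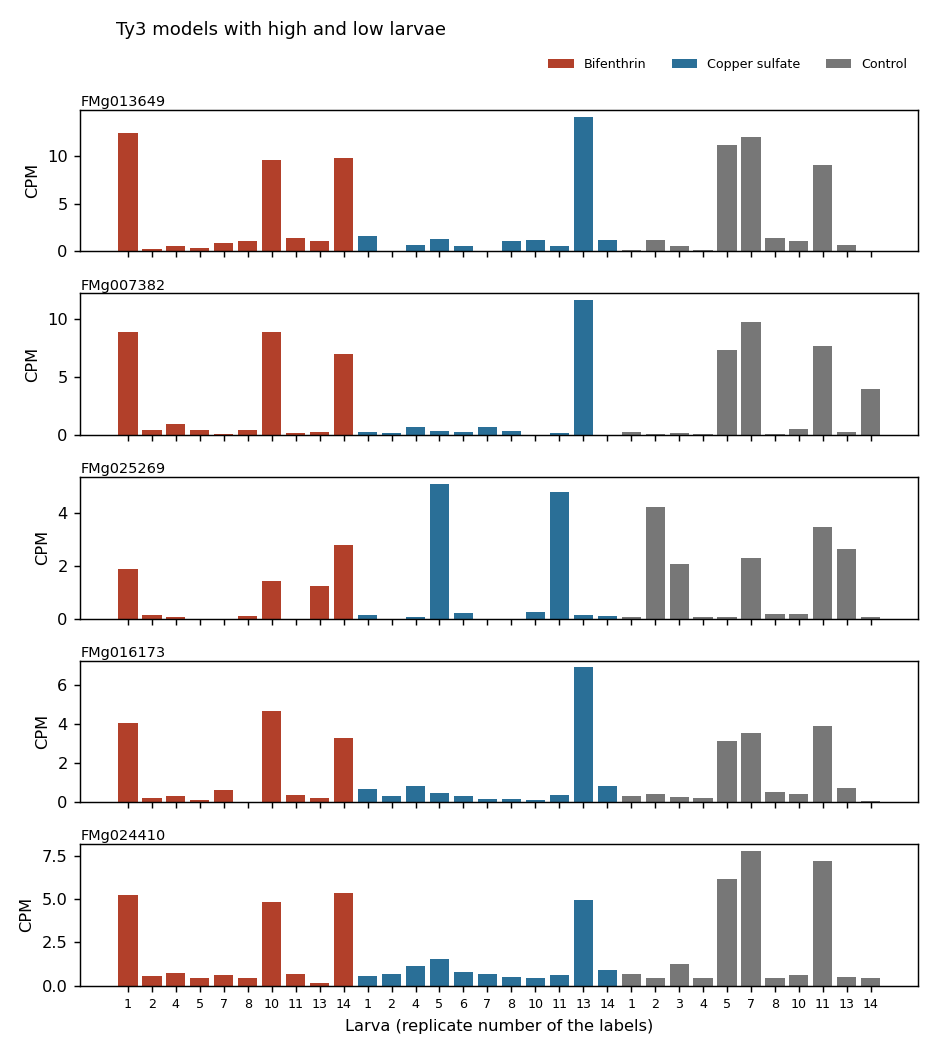
Level in CPM (vertical axes) of the 5 high-low Ty3 members, with 1 bar per larva, coloured by group and numbered by replicate. FMg013649, FMg016173 and FMg024410 are high in the same 7 larvae, and FMg007382 in those and control replicate 14, while FMg025269 is high in 11 larvae.

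FMg018496 and FMg010251, both with the Ty3-I entry and both among the 5 members with the largest dispersion over the trend, took opposite sides in 31 of 32 larvae. FMg018496 was low in 8 larvae (bifenthrin replicates 1, 10, 13 and 14, copper sulfate replicates 11 and 13, and control replicates 13 and 14), at 0.176 to 3.12 CPM, and ran between 6.72 and 32.4 CPM in the other 24. FMg010251 was high in 7 of those 8 larvae, at 9.94 to 20.9 CPM, and ran between 0.0773 and 4.62 CPM in the other 25. The exception was control replicate 13, which was low for both. With 24 high larvae for FMg018496 and 7 for FMg010251, many larvae fall on opposite sides by these numbers alone. FMg018496 was also opposite to FMg007382, FMg025269 and FMg013649, the rest of those 5 members, in 26, 25 and 25 larvae. Pairs of the 5 without FMg018496 were opposite in 1 to 9 larvae. By group, FMg018496 ran between 1.99 and 32.4 CPM (median 17.7) in bifenthrin larvae, between 1.17 and 28.1 CPM (median 18.8) in copper sulfate larvae and between 0.176 and 26 CPM (median 14.4) in control larvae. Its biological coefficient of variation was 0.83 where the trend was 0.20, and it differed by 0.20 ± 0.52 log2 in bifenthrin against control larvae (SE, edgeR adjusted p = 0.789). Their widest gaps were 1.07 and 1.08 log2 CPM, so neither met the definition of high-low, and the pairing was noticed after the values were seen.

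The high larvae of FMg010251 were 4 of 10 bifenthrin, 2 of 11 copper sulfate and 1 of 11 control larvae. Its level was 0.0773 to 20.9 CPM (median 2.18) in bifenthrin larvae, 1.39 to 20.5 CPM (median 2.40) in copper sulfate larvae and 0.797 to 9.94 CPM (median 2.096) in control larvae. The ranges overlapped, and the difference of bifenthrin from control larvae, 1.32 ± 0.67 log2 (SE), did not pass the threshold (edgeR adjusted p = 0.118). It reached 2.35 in lane 6 (adjusted p = 0.0321) and 0.08 in lane 7 (adjusted p = 0.965), and without control replicate 14 it passed the threshold over both lanes (adjusted p = 0.0406). The lane values are the ends of the range of adjusted p over all alternatives.

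Other members were also near absent or high in 1 or 2 larvae. FMg000372 (Ty3-I entry), 1 of the 5 members with the most counts, had 0 counts in control replicate 13, where the limit that a count of 0 allows is 0.263 CPM, and 3 counts (0.197 CPM) in control replicate 2. Its highest larvae were control replicate 10 at 29.9 CPM and bifenthrin replicate 5 at 22.3 CPM. Such limits cover counting error only. Its level was 2.34 to 22.3 CPM (median 10.9) in bifenthrin larvae and 7.07 to 19.5 CPM (median 11.7) in copper sulfate larvae, against a median of 9.17 CPM in control larvae. FMg016883 (Ty3-G entry), also among the 5 members with the most counts, spread less, with 8.52 to 28.8 CPM (median 15.9) in bifenthrin larvae, 3.89 to 19.7 CPM (median 14.2) in copper sulfate larvae and 3.38 to 29.01 CPM (median 12.8) in control larvae. FMg010276 (Ty3-I entry) had 16.6 CPM in bifenthrin replicate 13 and 20.3 CPM in copper sulfate replicate 11, and the next larva had 3.28 CPM. Another 2 members with the Ty3-I entry, named after their values were seen, were highest in the same 2 larvae. FMg003436 had 14.3 CPM in bifenthrin replicate 13 and 15.6 CPM in copper sulfate replicate 11, with 3.07 CPM in the next larva, and FMg018360 had 18.5 CPM in bifenthrin replicate 13 and 18.2 CPM in copper sulfate replicate 11, with 2.95 CPM in the next. Below the limit on mean count, FMg024954 (Ty3-I entry) had 81 counts in control replicate 2, 38 in the next larva and 0 in the other 30. Among the 88 tested members, control replicate 7 was the highest larva for 8, more than any other. Copper sulfate replicate 2 was listed as the lowest larva for 9, also more than any other. Members with 0 counts in several larvae were listed under only 1 of them, so that number depends on ties.

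Fewer Ty3 members than models in general passed the test for bifenthrin. Members past 2-fold in the fit were more frequent, but their fold changes also carried larger errors. At an adjusted p under 0.05 in edgeR's quasi-likelihood test, 7 of the 88 members were higher and 3 lower in bifenthrin than in control larvae, or 11.4% of the members, against 38.2% of all models tested (18% higher and 20.2% lower). At an unadjusted p under 0.05 there were 16 members (18.2%), against 45.8% of all models. The median log2 fold change was 0.09 over members and -0.01 over all models. The members' standard errors were larger, with a median of 0.43 log2 against 0.12 over all models. Their median absolute fold change, 0.34 log2, lay under their median SE. Over all models it was 0.24 log2, above the median SE. In size, 10 members (11.4%) differed by more than 2-fold in the fit, against 5.84% of all models. Larger errors also widen fitted fold changes, so these sizes are not read as larger responses. In 0 members were the bifenthrin and control ranges apart, against 6.35% of all models.

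The members that rose were 4 with the Ty3-I entry and 3 with the Ty3-G entry. FMg025314 (Ty3-G entry) had 0.619 to 3.07 CPM (median 2.05) in bifenthrin larvae, 0.150 to 2.02 CPM (median 0.785) in copper sulfate larvae and 0 to 2.21 CPM (median 0.785) in control larvae. Its mean was 2.09 ± 0.821 CPM in bifenthrin larvae and 0.805 ± 0.645 CPM in control larvae (SD, n = 10 and 11), and it rose by 1.41 ± 0.43 log2 (SE, edgeR adjusted p = 0.00987). Its bifenthrin median lay just under the highest control larva, and the ranges overlapped.

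FMg025574 (Ty3-I entry) had 0.541 to 1.17 CPM (median 0.872) in bifenthrin larvae and 0.0569 to 0.904 CPM (median 0.437) in control larvae. It rose by 1.10 ± 0.35 log2 (SE, edgeR adjusted p = 0.0117). FMg019277 (Ty3-I entry) had 0.522 to 2.11 CPM (median 0.996) in bifenthrin larvae and 0.128 to 1.74 CPM (median 0.425) in control larvae, and rose by 1.21 ± 0.38 log2 (adjusted p = 0.0122). The bifenthrin medians of both lay above their control medians while the ranges overlapped, and both kept their call whichever single larva was left out, as did FMg025314.

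FMg022987 (Ty3-G entry) had 2.78 to 8.12 CPM (median 5.54) in bifenthrin larvae and 0.965 to 6.12 CPM (median 4.06) in control larvae, a rise of 0.71 ± 0.27 log2 (SE, edgeR adjusted p = 0.0371). FMg008439 (Ty3-I entry) had medians of 1.08 CPM in bifenthrin larvae and 0.686 CPM in control larvae and rose by 0.83 ± 0.33 log2 (adjusted p = 0.0461). For FMg008859 (Ty3-G entry) the medians were 2.90 CPM in bifenthrin larvae and 1.58 CPM in control larvae, a rise of 0.67 ± 0.27 log2 (adjusted p = 0.0499). These calls lay close to the threshold. Leaving out 1 larva ended the call of FMg022987 in 8 of 32 cases, that of FMg008439 in 12 and that of FMg008859 in 23. FMg008345 (Ty3-I entry) had 0.151 to 3.44 CPM (median 0.584) in bifenthrin larvae and 0 to 0.878 CPM (median 0.425) in control larvae, and rose by 1.26 ± 0.47 log2 (adjusted p = 0.0343). Its highest larva was bifenthrin replicate 10, and without that larva the change was 0.64 log2 and no longer called (adjusted p = 0.276, the highest over all alternatives, which gave 0.0165 at the lowest).

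The 3 members that fell all had the Ty3-I entry and shared their highest larvae. FMg018307 had 0.963 to 5.51 CPM (median 1.99) in bifenthrin larvae, 0.139 to 6.66 CPM (median 2.35) in copper sulfate larvae and 1.05 to 10.4 CPM (median 4.84) in control larvae. Its mean was 2.50 ± 1.432 CPM in bifenthrin larvae and 5.53 ± 2.85 CPM in control larvae (SD, n = 10 and 11), and it fell by 1.18 ± 0.40 log2 (SE, edgeR adjusted p = 0.0177). FMg019052 had medians of 0.939 CPM in bifenthrin larvae and 2.80 CPM in control larvae and fell by 1.12 ± 0.44 log2 (adjusted p = 0.0438). FMg018080 had medians of 0.385 CPM in bifenthrin larvae and 0.850 CPM in control larvae and fell by 1.3663 ± 0.50 log2 (adjusted p = 0.0311).

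Leaving out 1 larva ended the call of FMg019052 in 15 of 32 cases and that of FMg018080 in 3 of the 22 cases in which it was tested, and FMg018307 kept its call in all 32.

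All 3 were highest in control replicates 4 and 13. The levels there were 10.4 and 9.30 CPM for FMg018307, 5.24 and 4.39 CPM for FMg019052, and 1.59 and 1.84 CPM for FMg018080. With both larvae left out, an alternative chosen after seeing the data, FMg018307 differed by -0.86 log2 (edgeR adjusted p = 0.0885) and FMg019052 by -0.80 log2 (adjusted p = 0.165), and FMg018080 had too few counts to be tested. Over all alternatives the adjusted p ran between 0.00823 and 0.294 for FMg018307 and between 0.0186 and 0.754 for FMg019052. Then 4 members were called higher and 1 lower, and the lower one was FMg010092 (Ty3-I entry) at -1.14 log2 (edgeR adjusted p = 0.0433), against -1.08 log2 with all larvae (adjusted p = 0.0542).

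**Figure D4:**
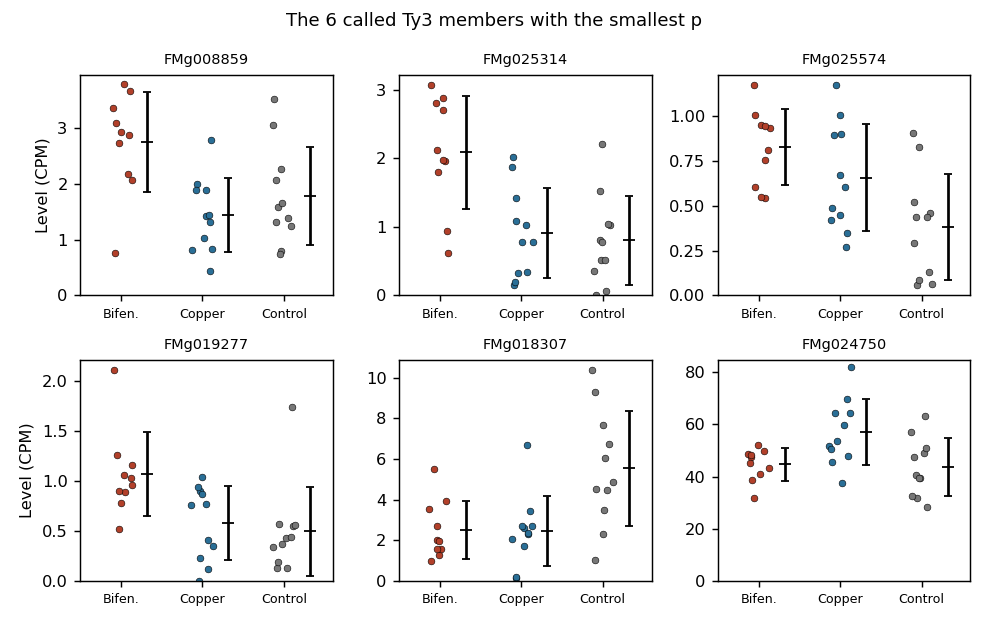
Level in CPM (vertical axes, starting at 0) of the 6 called members with the smallest p, for bifenthrin, copper sulfate and control larvae. Points are larvae and bars are the mean ± SD, and the groups overlap in each panel.

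The counts changed when single larvae were left out and within single lanes. A fit within 1 lane had 5 or 6 larvae per group, so its counts are not read as an effect of the lane. With both lanes and no lane term, 6 members were higher and 4 lower. The number called higher was 4 without bifenthrin replicate 2, 8 or 11 or control replicate 4 or 14, and at most 9 without any other larva. The number called lower was 5 without bifenthrin replicate 11 and 1 without copper sulfate replicate 1 or control replicate 2, 7, 11 or 13. Within lane 6 alone, where 101 members were tested, 1 was higher (FMg010251) and 3 lower (FMg019052, FMg025225, and FMg021143 with 199 counts in control replicate 7). Within lane 7 alone, where 90 were tested, 2 were higher (FMg019277 and FMg025574) and 0 lower. At an unadjusted p under 0.05 there were 12 members in lane 6 and 8 in lane 7. The share of all models at that threshold was not counted by lane, so these numbers say nothing about the members as a set. At the adjusted threshold, the share of all models called was 24.8% in lane 6, 19.1% in lane 7 and 35.3% to 39.5% with 1 larva left out. The log2 changes of FMg025314 were 1.08 in lane 6 and 1.73 in lane 7, and those of FMg018307 were -1.55 in lane 6 and -0.68 in lane 7. FMg019052 changed by -1.74 in lane 6 and -0.31 in lane 7.

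Under a filter on mean count alone, every member was tested, and 37.0% of all models were called for bifenthrin against control larvae. Of the 120 members, 6 were higher and 4 lower. The added one was FMg021999 (Ty3-G entry), named after its values were seen. It had 0 to 8 counts in bifenthrin larvae, 0 to 20 in copper sulfate larvae and 0 to 60 in control larvae, and differed by -2.74 log2 in bifenthrin against control larvae (edgeR adjusted p = 0.00636). The groups overlapped at 0.

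For copper sulfate, 0 of the 88 members passed the threshold against control larvae in edgeR's quasi-likelihood test, against 5.58% of all models (3.58% higher and 1.99% lower). At an unadjusted p under 0.05 there were 12 members (13.6%), against 18.6% of all models. limma-voom called 0 members and DESeq2 called 4, with FMg024750 higher and FMg018307, FMg019052 and FMg024212 lower. Of all models, limma-voom called 5.51% and DESeq2 7.00%. The median log2 fold change was -0.04 over members and -0.01 over all models, and 40 members had a positive and 48 a negative value. In size, 11 members (12.5%) differed by more than 2-fold in the fit, against 1.18% of all models, with a median SE of 0.42 log2 over members and 0.12 over all models. In 0 members were the copper sulfate and control ranges apart, against 0.217% of all models.

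Adjusted p under 0.1 was reached by 6 members, 2 with a positive and 4 with a negative difference. The share of all models under 0.1 was not counted, so this number says nothing about the members as a set. FMg024750 had 37.4 to 82.1 CPM (median 53.7) in copper sulfate larvae and 28.4 to 63.3 CPM (median 40.5) in control larvae, a difference of 0.38 ± 0.12 log2 (SE, edgeR adjusted p = 0.0656). FMg018943 had 68.9 to 148 CPM (median 101) in copper sulfate larvae and 62.1 to 115 CPM (median 80.3) in control larvae, a difference of 0.32 ± 0.12 log2 (adjusted p = 0.0994). Both were highest in copper sulfate replicate 1, and the ranges overlapped.

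FMg018307 differed by -1.22 ± 0.39 log2 in copper sulfate against control larvae (SE, edgeR adjusted p = 0.059) and FMg019052 by -1.29 ± 0.44 log2 (adjusted p = 0.0782). FMg024212 (Ty3-I entry) had 0.973 to 8.95 CPM (median 1.80) in copper sulfate larvae and 0.551 to 16.3 CPM (median 3.33) in control larvae, a difference of -1.425 ± 0.48 log2 (adjusted p = 0.0778). FMg010092 (Ty3-I entry), named after its values were seen, differed by -1.29 ± 0.44 log2 (adjusted p = 0.0774). The most negative value was that of FMg008587 (Ty3-I entry) at -1.52 ± 0.61 log2 (adjusted p = 0.152). Both chemicals were set against the same 11 control larvae, so a high or low control larva moves both comparisons at once.

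Leaving out 1 larva brought up to 3 members past the threshold for copper sulfate. There were 3 (of 86 tested) without copper sulfate replicate 5 or 13, 2 without control replicate 5 or 10, and 1 without control replicate 3, 4, 7, 8 or 14. Of all models, 6.51% were called without copper sulfate replicate 5 and 4.96% without replicate 13. In the cases with 1 or 2 members called, 4.43% to 5.75% of all models were. Within lane 6 alone 1 of 101 members tested was called (FMg022071, lower), and within lane 7 alone 0 of 90. In lane 6, 11 members had an unadjusted p under 0.05, and in lane 7, 8 had. The share of all models at that threshold was not counted by lane, so these numbers say nothing about the members as a set. At the adjusted threshold, the share of all models called was 1.80% in lane 6 and 0.410% in lane 7.

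**Figure D5:**
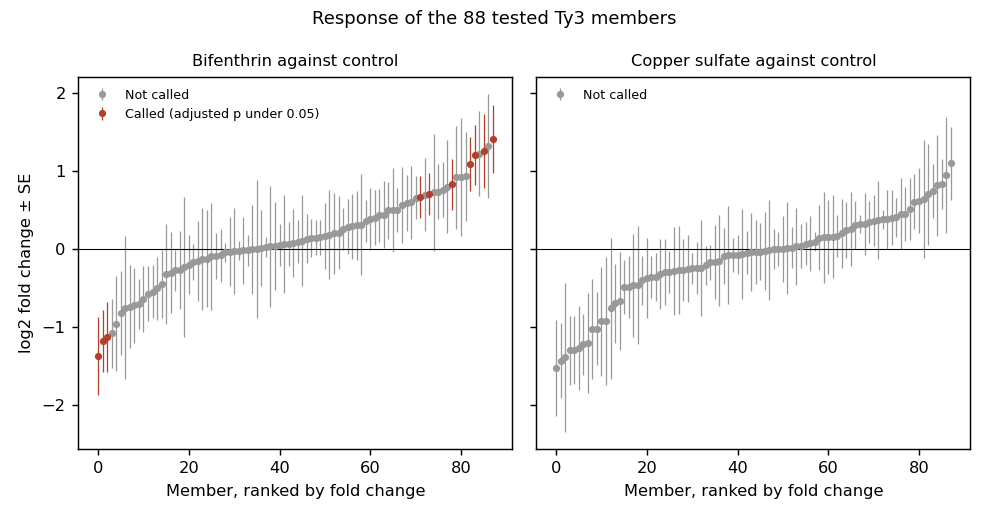
log2 fold change ± SE (vertical) of the 88 tested members, ranked by fold change (horizontal), for bifenthrin against control (left) and copper sulfate against control (right). Red points passed the adjusted p threshold of 0.05, 10 members on the left and 0 on the right.

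Between the chemicals, with bifenthrin set against copper sulfate, 2 members were higher and 3 lower (5.68%), against 32% of all models (14.9% higher and 17.1% lower). The median log2 difference was 0.23 over members and -0.02 over all models, and 62 members had a positive and 26 a negative value. By entry the median was 0.17 over 57 Ty3-I members, with 37 positive, and 0.39 over 31 Ty3-G members, with 25 positive. These are descriptions without a test. At an unadjusted p under 0.05 there were 9 members (10.2%), against 40.8% of all models, and ranges were apart for 0 members and 3.74% of all models.

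Both members that were higher had the Ty3-G entry. FMg008859 had 0.756 to 3.80 CPM (median 2.90) in bifenthrin larvae and 0.447 to 2.78 CPM (median 1.428) in copper sulfate larvae, and was higher by 0.96 ± 0.27 log2 (SE, edgeR adjusted p = 0.00704). The difference was 0.43 log2 in lane 6 and 1.49 in lane 7. FMg025314 was higher in bifenthrin than in copper sulfate larvae by 1.21 ± 0.43 log2 (adjusted p = 0.0296), with the levels given above. FMg008859 kept this call whichever single larva was left out, and FMg025314 lost it in 5 of 32 cases.

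The first 2 members by count were lower in bifenthrin larvae. FMg018943 had 61.9 to 99.5 CPM (median 87.6) in bifenthrin larvae and 68.9 to 148 CPM (median 101) in copper sulfate larvae, and differed by -0.34 ± 0.12 log2 (SE, edgeR adjusted p = 0.0267). FMg024750 had 31.6 to 52.0 CPM (median 46.4) in bifenthrin larvae and 37.4 to 82.1 CPM (median 53.7) in copper sulfate larvae, and differed by -0.35 ± 0.13 log2 (adjusted p = 0.0339). Neither differed from control larvae by more than its error under bifenthrin, at -0.02 ± 0.12 and 0.03 ± 0.13 log2. Their biological coefficients of variation were 0.192 and 0.203, near the lowest of any tested member, 0.179. FMg010867 (Ty3-G entry) was also lower, with a difference of -0.85 ± 0.33 log2 (adjusted p = 0.0466).

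Leaving out 1 larva gave 1 to 4 members higher, with 1 without bifenthrin replicate 2 or 14 or copper sulfate replicate 2 and 4 without copper sulfate replicate 11 or 13. It gave 0 to 3 lower, with 0 without bifenthrin replicate 4 or 14 or copper sulfate replicate 4, and 1 without copper sulfate replicate 1 or 6. Within lane 6 alone 1 member was higher (FMg003436, with 184 counts in bifenthrin replicate 13 and 10 to 15 in the other 4 bifenthrin larvae of that lane) and 0 lower, and within lane 7 alone 1 was higher (FMg008859) and 0 lower. The share of all models called was 12.4% in lane 6 and 17.8% in lane 7.

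Other models with enzyme classes found in retrotransposon polyproteins were set beside the members. These classes also cover cellular enzymes, and none of these models carried a Ty3 entry. The ribonuclease H class had 16 models, 14 of them tested, with a median biological coefficient of variation of 0.474 and all 14 among the most dispersed 5% of models. Of these, 4 were higher and 0 lower in bifenthrin than in control larvae, 1 was higher and 0 lower in copper sulfate than in control larvae, and 2 were higher and 0 lower with bifenthrin than with copper sulfate. These are 28.6%, 7.14% and 14.3% of the 14 models, beside 38.2%, 5.58% and 32% of all models called in the same comparisons. The aspartic endopeptidase class had 52 models, 17 of them tested, with a median coefficient of 0.702 and 11 among the most dispersed 5%. In that class 1 was higher and 0 lower in bifenthrin than in control larvae, and 1 higher and 1 lower in copper sulfate than in control larvae. Between the chemicals 0 differed, and 1 (5.88%) had an unadjusted p under 0.05, against 40.8% of all models. The calls are 5.88% of the 17 models for bifenthrin and 11.8% for copper sulfate, beside 38.2% and 5.58% of all models. Models with no annotation entry, 1751 of 4139 tested, had a median coefficient of 0.327, and 19.1% of them were among the most dispersed 5%. All tested models of both enzyme classes lay above their trend value, against 88.6% of the members and 52.0% of models with no entry.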

How the data were processed

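RNA was sequenced from 32 whole larvae, and the authors deposited 1 table of raw counts per gene model and larva, with UniProt entries or enzyme classes as annotation. Tools listed in the submitters' processing notes, without roles, are bcl2fastq 2.19.1, STAR and limma. The build, the counting tool and its treatment of strand and of reads matching several models are not stated. Groups and lanes came from the labels, 0 columns lacked a larva, and 0 model numbers matched the RefSeq gene table. No larvae were alike within sampling noise (lowest chi-square per degree of freedom 9.41 over 496 pairs).

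The members, lists and tests were chosen with earlier results of these data known. Models were filtered with filterByExpr of edgeR 4.0.16 (R 4.3.3), which kept 21174 of 26150 models and 99.9% of counts, and scaled by TMM. 1 model over all larvae had group and lane terms, and each contrast was tested by edgeR's quasi-likelihood method, with Benjamini-Hochberg adjustment over all models and a threshold of 0.05. The SE is the absolute log2 fold change divided by the square root of F. log2 CPM used a prior count of 2. The fit was also run on simulated counts with known changes in models drawn at random from all those tested. Counts were drawn separately for each model, so larvae high for several members at once were not imitated. Named members were those called in any contrast (up to 12 by smallest p), the 5 with the most counts, the 5 with the largest dispersion over the trend, the 3 largest and 3 smallest fold changes per chemical, and those nearest the limit of 5 on the mean count. Other lists by enzyme class (reverse transcriptase, DNA polymerase, DNA and histone methyltransferases, histone deacetylase, RNA helicase) matched 0 models. DESeq2 1.42.0, limma-voom 3.58.1, other filters and scalings, single lanes, a replicate block and leaving out single larvae were alternatives. Depth was 10655113 to 17993699 counts per larva, and a count of 0 allows up to 3 counts.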

Additional observations from a re-analysis of the deposited data

Results flagged for a closer look

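Among 24 sets of values (the named members and 2 sums over members) in bifenthrin larvae, the group with 10 larvae, 3 had a larva whose gap to the nearest other, divided by the range, passed Dixon's critical value of 0.466. For normally distributed values that were not chosen beforehand, chance gives this for about 1 group in 20. The members were named from these same data, in part for their spread, calls or fold changes, so that rate does not apply here. FMg010276 had 16.6 CPM in bifenthrin replicate 13, and the nearest larva of the group had 1.52 CPM (ratio 0.923). FMg008345 had 3.44 CPM in bifenthrin replicate 10, and the nearest had 1.26 CPM (ratio 0.662). FMg019277 had 2.11 CPM in bifenthrin replicate 13, and the nearest had 1.26 CPM (ratio 0.532). FMg008345 and FMg019277 were called higher in bifenthrin than in control larvae. Without the high larva FMg008345 was no longer called, and FMg019277 kept its call.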

How the results depend on the processing

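Counts of called members moved with the settings and, where not named here, stayed within 1.5 times their value. In bifenthrin against control larvae, 7 members were called higher, and this became 4 with library totals alone, 4 with only the 2 groups compared, 4 without control replicates 4 and 13, 3 with a replicate block, 1 in lane 6 and 2 in lane 7. The 3 called lower became 0 with limma-voom, 0 in lane 7 and 1 without control replicates 4 and 13. In copper sulfate against control larvae, where 0 were called, DESeq2 gave 1 higher and 3 lower, library totals 2 lower and lane 6 1 lower. Between the chemicals, the 2 higher became 4 with limma-voom and 1 in each lane, and the 3 lower became 0 in each lane and 0 with the replicate block. These counts are not all over the same members. The main fit tested 88, against 101 in lane 6, 90 in lane 7, 89 without control replicates 4 and 13, and 120 with either other filter. With only the 2 groups compared, 69 were tested for bifenthrin, 63 for copper sulfate and 67 between the chemicals. With 1 larva left out it was 85 to 97. Over these settings the share of all models called also moved. That share was 19.1% (lane 7) to 39.2% (DESeq2) for bifenthrin and 0.410% (lane 7) to 8.02% (library totals) for copper sulfate, single larvae aside. Between the chemicals it was 12.4% (lane 6) to 32.8% (DESeq2). Leaving out 1 larva gave 4 to 9 higher and 1 to 5 lower for bifenthrin, 0 to 2 higher and 0 to 2 lower for copper sulfate, and 1 to 4 higher and 0 to 3 lower between the chemicals.

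For the aspartic endopeptidase class, 1 model was called for bifenthrin. This became 2 with library totals, DESeq2, the mean count filter, lane 6 or the 2 groups compared, 3 with no filter, and 0 in lane 7, with the block or without control replicates 4 and 13 (1 to 2 without 1 larva). Its 2 calls for copper sulfate became 1 with library totals, in either lane, with the 2 groups, robust dispersion or without control replicates 4 and 13, and 0 with limma-voom, no lane term or the block (0 to 2 without 1 larva). Between the chemicals it had 0 calls, and 1 with no filter (0 to 1 without 1 larva). The 2 calls of the ribonuclease H class between the chemicals became 1 with library totals, DESeq2, limma-voom, either filter, no lane term, robust dispersion or without control replicates 4 and 13, and 0 in lane 6 or with the block (0 to 3 without 1 larva). For bifenthrin and copper sulfate that class kept 4 to 5 and 1 to 1 calls without 1 larva.

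The summed level without FMg018943 was 283 CPM in bifenthrin, 269.9 in copper sulfate and 265 in control larvae. For the Ty3-I entry alone it was 281, 306 and 275 CPM in these groups, and for the Ty3-G entry alone 86.2, 70.2 and 75.6 CPM. Copper sulfate larvae thus had the highest of these means for the Ty3-I entry and the lowest for the Ty3-G entry. The Ty3-I sum includes FMg018943 and FMg024750, which together reached 163 CPM in copper sulfate larvae and 129 CPM in bifenthrin and in control larvae. Over all other members of both entries, copper sulfate larvae were lowest, at 213 CPM against 238 in bifenthrin and 222 in control larvae. Directions turned for 4 small or unstable differences. FMg024750 in bifenthrin against control larvae (0.03 log2) was -0.042 with library totals, -0.091 in lane 7 and between -0.016 and 0.093 without 1 larva. FMg018943 (-0.02 log2) was 0.025 in lane 7 and between -0.058 and 0.050 without 1 larva. In copper sulfate against control larvae, FMg007382 (-1.39 log2) was 0.53 in lane 6, and FMg010276 (0.95 log2) was -0.63 in lane 6 and between -0.55 and 1.26 without 1 larva, the lowest without copper sulfate replicate 11. The cause was not tested. Over 25 results of named members and all settings, 935 of 1100 values kept direction and side of the threshold, 135 lost the call, 13 gained it and 17 turned. Only 14 of the 25 results were called in the main fit, so only these could lose a call. Most settings left out 1 larva each (32, beside 13 others), which changes the data little. The medians over members stayed within the spread between larvae, and the one for copper sulfate lay between -0.11 and 0.02 log2 without 1 larva. No strong likeness was seen between larvae with the same replicate number. Over 30 same-numbered pairs the deviations correlated between -0.197 and 0.214, and 3 of 30 larvae correlated best with their own number. The labels do not say what the numbers mean, and whether same-numbered larvae shared handling was not tested. With a median SE of 0.43 log2, differences well under 2-fold were not detectable for most members at this depth and spread. Larger ones could also go uncalled. For copper sulfate against control larvae, 11 members differed by more than 2-fold in the fit and 0 were called, so the absence of calls does not exclude such differences. Robust dispersion and the removal of control replicates 4 and 13 were chosen after seeing the data.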
